A study of Mus musculus with 12 samples.

Results

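RNA-seq profiles of 6 mammary tumors from injected MMTV-PyVT mice were compared with those of 3 normal mammary tissue replicates, which are 9 of the 12 samples of the series. The members were the 3 libraries labelled Normal, the 3 labelled DMSO and the 3 labelled C646, and all 23301 gene names that both sets of files hold were described. MMTV-PyVT mice carry the polyoma virus middle T antigen under the mouse mammary tumor virus promoter, which is active mainly in mammary epithelium, and the females used were heterozygous on an FVB background. Normal tissue came from 12-week-old wild-type FVB females, and each normal replicate pooled the abdominal and inguinal glands of 3 mice. The injected tumors came from MMTV-PyVT mice of the same age that received DMSO, the solvent, or C646, an inhibitor of the histone acetyltransferase p300. Both groups carry a dose of 1 mg/kg in the labels, and the biggest tumor of each of 3 mice per group was sequenced, from a gland that is not given in the sources used here. The remaining 3 samples, labelled Tumor, were thoracic gland tumors of untreated MMTV-PyVT mice, 1 mouse per replicate. The study compared them with the same normal tissue, and they are used here to ask which differences between tumor and normal tissue recurred in a second set of tumors. The injected tumors differ from the untreated tumors in the injection, in how the tumor was chosen and in the set of files, and these cannot be told apart.

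A normal mouse mammary gland of this age is a thin tree of epithelial ducts set in a large pad of fat. The ducts have an inner layer of luminal cells, some of which sense estrogen and progesterone, and an outer layer of contractile basal cells. White adipocytes fill the pad, brown adipocytes occur within it, and the inguinal gland surrounds a lymph node rich in B and T lymphocytes. Middle T antigen is a membrane protein that recruits Src, PI3 kinase and other signalling proteins, and its expression in the epithelium gives rise to fast-growing, multifocal adenocarcinomas. Tissue taken around a tumor in the thoracic region can also include muscle of the body wall.

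All values are FPKM, fragment numbers scaled to the length of the transcript and to the size of the library. The FPKM of all rows, including those without a gene name, summed to 550599 to 639409 in normal tissue, 553988 to 638606 in DMSO tumors and 526855 to 554041 in C646 tumors, and between 11662 and 12518 of the shared names reached 1 FPKM in each of these 9 libraries. A first principal component that held 78.9% of the variance separated the normal tissue from the injected tumors, and the second, with 6.29%, was led by DMSO tumor 1. An FPKM of exactly 0 is reported here as listed at 0, because Gapdh, a glycolytic enzyme that every cell uses, was listed at 0.0875, 0 and 0.194 FPKM in normal tissue and 0, 0.0791 and 0 FPKM in untreated tumors, against 2.11 to 19.9 FPKM in the injected tumors.

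Injected tumors differed from normal tissue at most genes. The injected tumors and the normal tissue also come from different sets of files, of 24304 and 26220 rows. Differences of tissue, of gland, of injection and of file set cannot be told apart in this comparison. Of 13046 genes tested with limma on log2(FPKM + 0.03125), 5250 (40.2%) were higher and 3770 (28.9%) were lower in the 6 injected tumors at an adjusted p under 0.05. The injected tumors and the normal replicates did not overlap at 4718 of the higher and 3431 of the lower genes. By the limma log2 difference, 2702 of the lower and 2596 of the higher genes differed by at least 2-fold. At least 8-fold differences were more frequent among the lower genes, with 1137 against 464. For genes near 0 these folds depend on the pseudocount. The median log2 difference over all tested genes was 0.19, and it was −0.073 after scaling by the median ratio, with 3847 genes higher and 4723 lower, so that the excess of higher genes rested on the scaling. With quantile normalization 5258 genes were higher and 3891 lower.

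In untreated tumors against the same normal replicates, 3686 (28.9%) of 12754 tested genes were higher and 4031 (31.6%) were lower. Both comparisons used the same 3 normal replicates, so their results are not independent of each other. Among 12646 genes tested in both, 3623 were higher in untreated tumors and 4996 in injected tumors. Of these, 3027 recurred, which is 83.5% of the first list and 60.6% of the second. Of 4031 genes lower in untreated tumors and 3764 lower in injected tumors, 3034 recurred, which is 75.3% and 80.6%. A direct limma comparison of injected with untreated tumors called 2891 genes (23.7%) higher and 1196 (9.8%) lower. A difference was counted as not recurring where the injected tumors did not show it against normal tissue and also differed from the untreated tumors in the opposite direction. This held for 350 higher genes (9.66%) and 702 lower genes (17.4%). These counts depended on single libraries and on the scaling, with 171 higher genes without untreated tumor 1, 447 lower genes without normal replicate 3, 577 higher genes after scaling by the median ratio, 335 lower genes with quantile normalization, and 120 and 318 with DMSO tumors only. Without normal replicate 1, 2 or 3, recurring lower genes numbered 1909, 1771 and 1787, and without untreated tumor 1, 559 genes were lower between the tumor sets. Another 1819 genes were called higher and 686 lower in the injected tumors alone, and for these a lack of a call in untreated tumors does not by itself show a difference between the tumor sets.

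**Figure D1:**
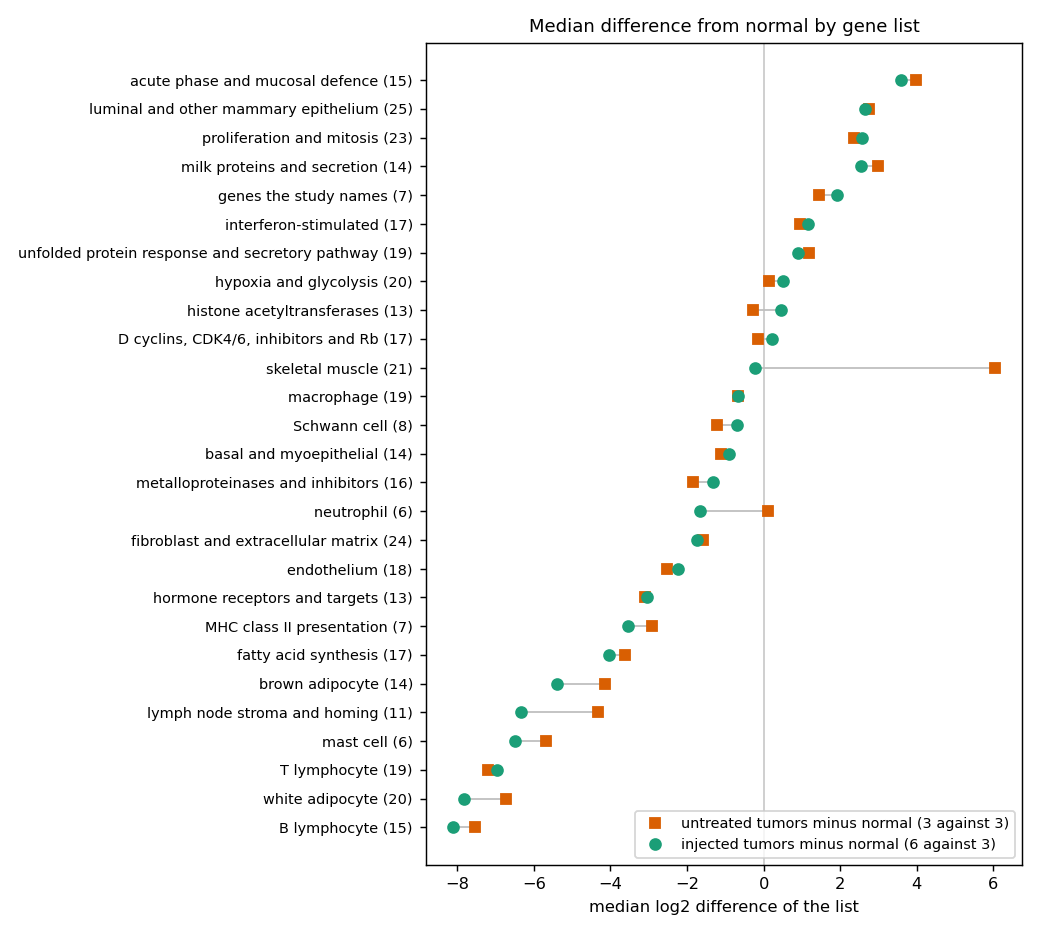
Median log2 difference from normal tissue for each gene list with at least 5 tested genes, with green circles for the 6 injected tumors and orange squares for the 3 untreated tumors. The number of genes tested in injected tumors is in brackets and the pale grey vertical line marks 0. The widest gap between symbols is that of skeletal muscle, with a median of 6.05 in untreated and −0.22 in injected tumors. Lymph node stroma and homing (−4.33 and −6.33) and neutrophil genes (0.10 and −1.67) follow. Between the tumor sets only 2 lymph node and 4 neutrophil genes were tested, and none was called. Lymph node sums were low in both sets, at 6.22 to 8.89 FPKM in untreated and 3.22 to 7.22 FPKM in injected tumors.

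White adipocyte genes were far lower in the injected tumors than in the normal gland. All 20 genes of the list were tested and were lower, against 28.9% of all tested genes, with a median log2 difference of −7.82. All 20 were also lower in untreated tumors, against 31.6%. Only 14 of the 20 reached 1 FPKM in 3 or more injected tumors. The rest passed the filter through normal tissue and could hardly be called higher. In bulk tissue, fewer cells of a type and less RNA per cell cannot be told apart. The summed FPKM of the list was 29685 to 37673 in normal tissue, 85.3 to 793 with a median of 202 in the injected tumors and 244 to 2767 in the untreated tumors. Fabp4, a fatty acid carrier and one of the most abundant transcripts of adipocytes, was measured at 13737, 17616 and 16228 FPKM in the normal replicates. In the DMSO tumors it was 9.76, 36.1 and 45.9 FPKM and in the C646 tumors 48.8, 232 and 234 FPKM, a log2 difference of −8.06 ± 0.88 (SE), limma adjusted p = 2.38e-05. No injected tumor came near the normal range. Adipoq (chr16:23146536-23158028, plus strand; positions are those of GENCODE vM21 on GRCm38), the hormone adiponectin, was 1207, 1517 and 1400.5 FPKM in normal tissue and 0.186, 1.57 and 0 FPKM in DMSO tumors and 3.57, 10.6 and 22.8 FPKM in C646 tumors (−9.88 ± 1.80 (SE), limma adjusted p = 7.07e-04). DMSO tumors 1 and 3 held least of it and C646 tumors 2 and 3 most. Pparg (chr6:115360951-115490399, plus strand), the nuclear receptor that directs adipocyte formation, was 65.2, 70.3 and 85.2 FPKM in normal tissue and 0.222 to 3.16 FPKM in injected tumors (−6.35 ± 0.69 (SE), limma adjusted p = 2.16e-05). The size of these differences depends on the pseudocount where a tumor value is near 0, although the calls do not.

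Brown adipocyte genes were lower as well. Of 14 tested, 13 were lower with a median of −5.41, against 28.9% of all tested genes. Ppargc1a, a coactivator of mitochondrial genes, was not called at 1.35 to 2.09 FPKM in normal and 0.265 to 2.14 FPKM in injected tissue. Ucp1 (chr8:83290352-83298452, plus strand), the uncoupling protein that makes brown fat produce heat, was 386, 901 and 663 FPKM in normal tissue, was listed at 0 in 4 injected tumors and reached 0.220 FPKM in DMSO tumor 2 and 3.38 FPKM in C646 tumor 2 (−12.63 ± 1.42 (SE), limma adjusted p = 2.89e-05). Untreated tumor 1 still held 33.1 FPKM. Cox8b, a muscle and brown fat subunit of cytochrome oxidase, was 1036 to 2304 FPKM in normal tissue and 7.13 to 19.7 FPKM in injected tumors, a 118-fold fall in group means. It was also lower in injected than in untreated tumors (−2.16 ± 0.68 (SE), limma adjusted p = 0.035). Muscle genes were also lower in injected than in untreated tumors (described below), and their part in the difference of Cox8b was not tested. Without normal replicate 1, 2 or 3 in turn, fewer brown fat genes reached 1 FPKM in 3 libraries, and with as few as 7 tested all of those were lower. Of the 14 tested, 6 reached 1 FPKM in 3 or more injected tumors. The others passed the filter through normal tissue and could hardly be called higher.

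Genes of fatty acid and triglyceride synthesis were mostly lower as well. Of 17 tested, 15 were lower (median −4.04) and 1 higher, against 28.9% and 40.2% of all tested genes. Scd1, which desaturates stearate, was 4529 to 5036 FPKM in normal tissue and 90.4 to 249.5 FPKM in injected tumors, a 27.1-fold fall. Fasn, the fatty acid synthase, was 1376 to 1923 FPKM and 41.1 to 87.6 FPKM, a 26.1-fold fall. Dgat2, which adds the last acyl chain of a triglyceride, fell 140.0-fold (−7.26 ± 0.38 (SE), limma adjusted p = 3.17e-07). Elovl5, which extends polyunsaturated chains and is used by most cells, differed much less, at 55.4 to 67.3 against 24.7 to 50.4 FPKM (−0.78 ± 0.20 (SE), limma adjusted p = 0.00551). Fads2, a desaturase of the same pathway, went the other way, at 28.6, 16.8 and 29.3 FPKM in normal tissue and 57.1 to 95.1 with a median of 87.0 FPKM in injected tumors (1.69 ± 0.23 (SE), limma adjusted p = 1.18e-04), and its groups did not overlap. Fads1 was not called (−0.17 ± 0.21 (SE), limma adjusted p = 0.497). The same 15 and 1 genes were called in untreated tumors.

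Lymphocyte genes were among the most reduced. All 15 B lymphocyte genes were lower, with a median of −8.12, against 28.9% of all tested genes. The summed FPKM of the list was 469 to 602 in normal tissue and 3.05 to 5.30 with a median of 3.90 in injected tumors. In untreated tumors it was 2.38 to 4.44. Ms4a1 (chr19:11249675-11266241, minus strand), which encodes the B cell antigen CD20, was 24.4, 29.7 and 26.7 FPKM in normal tissue and listed at 0 in all 6 injected and all 3 untreated tumors. Cr2, the complement receptor of B cells and follicular dendritic cells, and Pax5, the factor that fixes B cell identity, were listed at 0 in all 6 injected tumors from 9.60 to 10.2 and 4.64 to 8.88 FPKM in normal tissue. Cd79a (chr7:24897381-24902197, plus strand), a chain of the B cell receptor, was 82.5, 112 and 86.9 FPKM in normal tissue and at most 0.355 FPKM in an injected tumor (−10.15 ± 0.83 (SE), limma adjusted p = 3.70e-06). With tumor values this close to 0 and no read counts, what remains of B cells in the injected tumors was not measurable here.

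T lymphocyte genes were lower at 19 of 19 (median −6.95), and genes of lymph node stroma and homing at 11 of 11 tested of 14 shared (median −6.33). Over all tested genes, 28.9% were lower. Cd3e, part of the T cell receptor complex, was 48.9, 55.1 and 45.1 FPKM in normal tissue and 0 to 0.319 FPKM in injected tumors. Cxcl13, the chemokine of B cell follicles, was 64.3, 78.1 and 71.1 FPKM in normal tissue and 0 to 0.331 FPKM in injected tumors (−8.64 ± 0.68 (SE), limma adjusted p = 2.78e-06). Tcf7, a factor of the Wnt pathway that is also used outside T cells, kept the highest level of the T cell list, at 17.8 FPKM in DMSO tumor 3 and 1.60 to 3.56 FPKM in the other 5 (−4.24 ± 0.61 (SE), limma adjusted p = 1.59e-04). Ccl5, a chemokine made by T and other cells, differed alike in both tumor sets, at 163, 267 and 157 FPKM in normal, 2.90, 0.652 and 3.53 FPKM in untreated and 0.464 to 5.54 FPKM in injected tissue. These genes are present almost only in normal tissue, so leaving out a normal replicate took most of them below the filter, to 2 of the B lymphocyte, 5 of the T lymphocyte and 3 of the lymph node genes, and all of those were lower. Only 1 B lymphocyte, 2 T lymphocyte and 1 lymph node gene reached 1 FPKM in 3 or more injected tumors. The rest passed the filter through normal tissue and could hardly be called higher.

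Other stromal cell types were lower to different extents. Over all tested genes, 28.9% were lower. The 6 tested mast cell genes were all lower (median −6.50), and Cma1, a mast cell chymase, was 45.1, 44.2 and 31.1 FPKM in normal tissue and 0.192 to 2.08 FPKM in injected tumors (−5.85 ± 0.72 (SE), limma adjusted p = 5.29e-05). Only 2 of the 6 reached 1 FPKM in 3 or more injected tumors. The others passed the filter through normal tissue and could hardly be called higher. All 7 genes of MHC class II presentation were lower (median −3.54). Of the 7, 4 reached 1 FPKM in 3 or more injected tumors, and the rest passed the filter through normal tissue. H2-Aa, a class II chain, was 256, 379 and 237 FPKM in normal tissue, 4.77, 21.4 and 9.12 FPKM in DMSO tumors and 17.3, 13.5 and 26.4 FPKM in C646 tumors (−4.41 ± 0.47 (SE), limma adjusted p = 2.0e-05). The class II transactivator Ciita fell in both tumor sets and further in the injected one (−1.39 ± 0.27 (SE), limma adjusted p = 0.00362 against untreated tumors), although its name was composed of different rows in each set of files.

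Endothelial genes fell without disappearing. All 18 tested were lower (median −2.25), against 28.9% of all tested genes. Of the 18, 13 reached 1 FPKM in 3 or more injected tumors. The rest passed the filter through normal tissue and could hardly be called higher. Sums of the list were 310.3 to 352 FPKM in normal tissue and 61.6 to 109 with a median of 69.8 FPKM in injected tumors. In untreated tumors they were 52.1 to 87.8 FPKM. Pecam1, the adhesion molecule CD31, was 53.7, 52.8 and 64.5 FPKM in normal tissue and 11.2 to 23.8 with a median of 15.8 FPKM in injected tumors (−1.85 ± 0.22 (SE), limma adjusted p = 4.70e-05), and it was higher in the injected than in the untreated tumors (0.97 ± 0.28 (SE), limma adjusted p = 0.0217). Kdr, the main receptor of VEGF-A, was 13.1, 12.9 and 19.8 FPKM in normal tissue and 1.83 to 3.24 FPKM in injected tumors (−2.70 ± 0.22 (SE), limma adjusted p = 3.25e-06). Icam2 differed most on the log2 scale in this list (−3.60 ± 0.45 (SE), limma adjusted p = 5.89e-05) and Flt1, another VEGF receptor, least (−1.14 ± 0.35 (SE), limma adjusted p = 0.0152), and the call of Flt1 was lost without normal replicate 3.

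Of 24 fibroblast and extracellular matrix genes, 19 were lower and 1 higher (median −1.73), against 28.9% and 40.2% of all tested genes. Dpt, a small dermal matrix protein, fell 45.0-fold and Dcn, the proteoglycan decorin, fell 14.3-fold, while Col1a1, the main chain of type I collagen, was 164 to 248 FPKM in normal and 85.8 to 214 FPKM in injected tissue and was not called (−0.64 ± 0.26 (SE), limma adjusted p = 0.0523). Tnc, the matrix protein tenascin C, was 3.17, 1.90 and 2.64 FPKM in normal tissue and 5.71 to 18.1 with a median of 10.3 FPKM in injected tumors (1.94 ± 0.32 (SE), limma adjusted p = 4.16e-04). Metalloproteinases and their inhibitors divided in the same way, with 10 of 16 lower and 4 higher, against 28.9% and 40.2% of all tested genes. Timp4, an inhibitor found in fat, was 10.8, 16.8 and 12.8 FPKM in normal tissue and listed at 0 in all 6 injected tumors. Mmp12, a macrophage elastase, was 0.629, 0.230 and 0.319 FPKM in normal tissue and 1.5 to 8.75 with a median of 4.57 FPKM in injected tumors (3.49 ± 0.53 (SE), limma adjusted p = 2.06e-04).

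Macrophage genes did not move as 1 group. Of 19 tested, 10 were lower and 4 were higher, against 28.9% and 40.2% of all tested genes. Mrc1, Folr2 and Marco, found on resident macrophages, were lower, and Marco was 71.4, 83.8 and 65.6 FPKM in normal tissue and at most 0.113 FPKM in an injected tumor. Trem2 and Cd14, a lipid receptor and a co-receptor for lipopolysaccharide, were higher in injected tumors (1.68 ± 0.21 (SE), limma adjusted p = 5.67e-05 and 1.85 ± 0.21 (SE), limma adjusted p = 2.73e-05). Csf1r, the receptor that macrophages need to survive, was 47.4, 52.7 and 46.8 FPKM in normal tissue, 11.3, 9.05 and 9.82 FPKM in untreated tumors and 20.7 to 38.1 with a median of 21.5 FPKM in injected tumors. It was lower than normal in both tumor sets, less so in the injected tumors (1.33 ± 0.22 (SE), limma adjusted p = 0.00183 between the sets). Of 11 shared neutrophil genes 6 were tested, of which S100a8 and Ltf were higher and Retnlg and Cxcr2 lower, and Ltf is also made by mammary epithelium. Of the 8 tested Schwann cell genes 3 were lower, among them Mbp, a protein of myelin, and Sox10 and Ncmap were higher. For these short lists as well, the shares over all tested genes are 28.9% lower and 40.2% higher. Sox10, a neural crest factor that mammary epithelium also uses, was 24.5, 11.4 and 17.7 FPKM in normal and 171 to 285 with a median of 237 FPKM in injected tissue (3.69 ± 0.24 (SE), limma adjusted p = 9.01e-07).

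**Figure D2:**
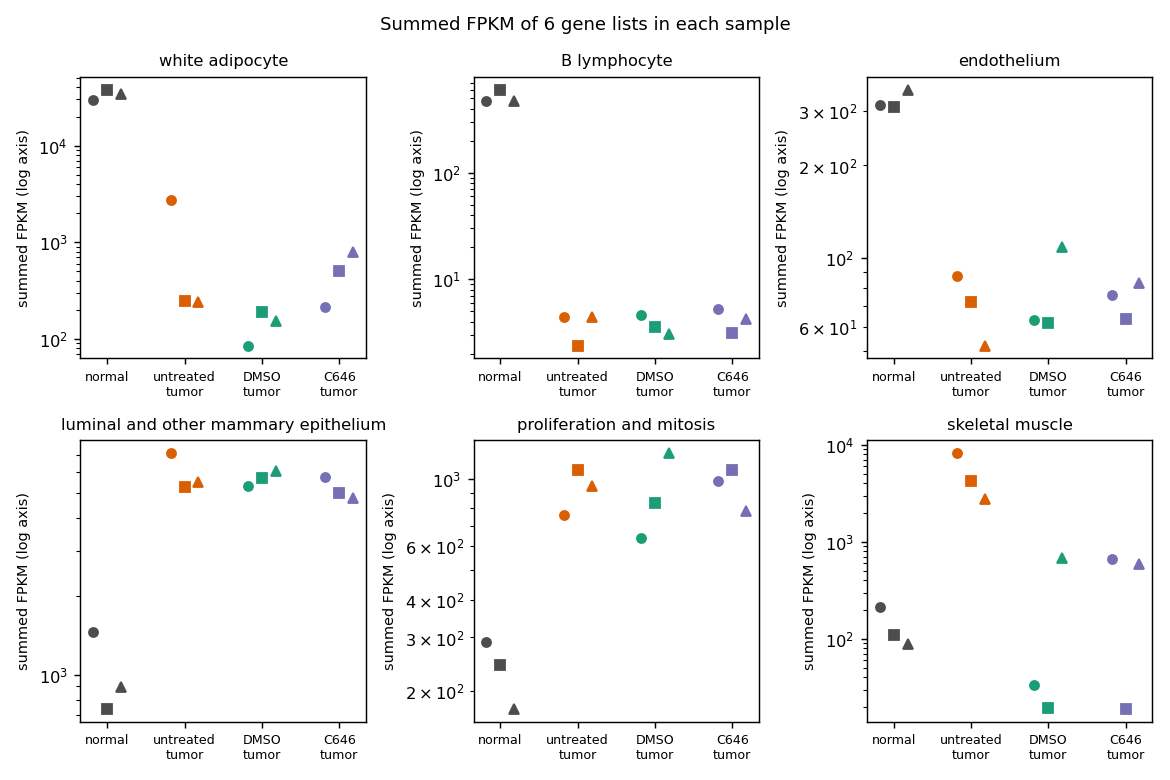
Summed FPKM of 6 gene lists in each library on a log10 axis, with 1 point per library for the normal, untreated, DMSO and C646 groups. White adipocyte, B lymphocyte and endothelium sums are lower and luminal epithelium and proliferation sums higher in every tumor than in every normal replicate, while skeletal muscle sums of the injected tumors run from 18.9 to 687 FPKM on both sides of the normal range.

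Epithelial genes rose in the tumors. Of 25 genes of luminal and other mammary epithelium, 24 were higher in injected tumors (median 2.65), against 40.2% of all tested genes. The same 24 were higher in untreated tumors, against 28.9%. Their sums were 737 to 1463 FPKM in normal tissue, 4789 to 6066 with a median of 5537 FPKM in injected tumors and 5255 to 7115 FPKM in untreated tumors. Epcam (chr17:87635979-87651129, plus strand), the epithelial adhesion molecule, was 147, 68.2 and 98.7 FPKM in normal tissue, 627, 642 and 524 FPKM in DMSO tumors and 701, 555 and 599.6 FPKM in C646 tumors (2.60 ± 0.21 (SE), limma adjusted p = 3.05e-06). Krt8 (chr15:101996698-102004482, minus strand), a keratin of luminal cells, was 161, 70.0 and 88.0 FPKM in normal tissue, 849, 867 and 874 FPKM in DMSO tumors and 838, 714 and 649 FPKM in C646 tumors (2.99 ± 0.23 (SE), limma adjusted p = 2.57e-06). Both genes had all 6 tumors well above the 3 normal replicates. Cldn3 (chr5:134986214-134987472, plus strand), a tight junction protein, rose 9.91-fold and Marveld3, another junction protein, rose 13.0-fold. Krt19, a keratin of luminal and progenitor cells, was not called, at 118 to 269.9 FPKM in normal tissue and 56.8 to 418 FPKM in injected tumors, lowest in DMSO tumor 1 and highest in DMSO tumor 3. Between the tumor sets, Ehf, Spint1, Kit and Marveld3 were higher in injected tumors and Krt7, Cldn7 and Rab25 were lower. The call of Cldn4 was lost without normal replicate 2.

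Basal cell genes split by type. Among 14 tested, 6 were lower and 3 higher, against 28.9% and 40.2% of all tested genes. The lower ones were the contractile genes Acta2, Myh11, Cnn1, Tagln and Actg2 and the oxytocin receptor Oxtr. Acta2, the smooth muscle actin, was 150.4, 97.2 and 145 FPKM in normal tissue and 9.10 to 21.8 FPKM in injected tumors, an 8.37-fold fall (−3.10 ± 0.27 (SE), limma adjusted p = 5.86e-06). Itgb4, an integrin of hemidesmosomes, was 11.8, 5.83 and 7.73 FPKM in normal tissue and 50.7 to 78.7 with a median of 70.1 FPKM in injected tumors (3.02 ± 0.22 (SE), limma adjusted p = 1.64e-06). Krt5, the basal keratin, was not called, at 63.3, 27.7 and 30.9 FPKM in normal tissue, 8.01, 25.6 and 229 FPKM in DMSO tumors and 26.4, 34.2 and 35.2 FPKM in C646 tumors, and only DMSO tumor 3 stood above the normal replicates. Acta2 and Myh11 are also made by the smooth muscle of vessels, whose endothelial genes were lower in the same tumors, and the part of vessels in their difference was not tested.

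Lamb3 (chr1:193207699-193343878, plus strand), the beta chain of the basement membrane protein laminin-332, was an epithelial gene whose tumor difference did not recur. It was 30.4, 23.6 and 20.1 FPKM in normal tissue, 206, 151 and 114 FPKM in untreated tumors, 19.0, 24.1 and 37.7 FPKM in DMSO tumors and 26.5, 32.5 and 40.6 FPKM in C646 tumors. The injected tumors overlapped the normal replicates (0.26 ± 0.24 (SE), limma adjusted p = 0.36), whereas every untreated tumor was above every injected tumor (−2.39 ± 0.26 (SE), limma adjusted p = 1.89e-04 for injected against untreated). This difference between the sets was called in all 20 alternative analyses, between −2.63 and −2.18.

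Genes of hormone sensing were mostly lower. Of 13 tested hormone receptors and their targets, 8 were lower and 2 higher (median −3.06), against 28.9% and 40.2% of all tested genes. Only 8 of the 13 reached 1 FPKM in 3 or more injected tumors. The rest passed the filter through normal tissue and could hardly be called higher. Esr1, the estrogen receptor alpha, was 7.54, 6.43 and 8.65 FPKM in normal tissue and 1.44 to 1.96 FPKM in injected tumors (−2.09 ± 0.18 (SE), limma adjusted p = 5.50e-06). Areg and Tnfsf11, growth signals that hormone-sensing cells release, fell (−3.38 ± 0.46 (SE), limma adjusted p = 1.10e-04 and −5.48 ± 0.84 (SE), limma adjusted p = 2.30e-04). Foxa1, a partner factor of the estrogen receptor, ranged from 0.114 FPKM in DMSO tumor 3 to 2.74 FPKM in DMSO tumor 2, against 6.27 to 11.2 FPKM in normal tissue (−3.52 ± 0.89 (SE), limma adjusted p = 0.00531). The 2 higher genes were Gata3 and Elf5, factors of luminal differentiation and of the milk-making lineage, of which Elf5 was 31.2, 12.7 and 27.7 FPKM in normal tissue and 155 to 295 with a median of 238 FPKM in injected tumors (3.40 ± 0.29 (SE), limma adjusted p = 4.55e-06). Prlr, the prolactin receptor, was not called (0.42 ± 0.28 (SE), limma adjusted p = 0.213). The progesterone receptor Pgr, at 0.820 to 1.10 FPKM in normal and 0 to 0.795 FPKM in injected tissue, was below the filter.

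Milk genes were higher in tumors, but unevenly. Of 14 tested, 9 were higher and 1 lower (median 2.55), against 40.2% and 28.9% of all tested genes. Csn3 (chr5:87925579-87932665, plus strand), kappa casein, was 130.5, 122 and 231 FPKM in normal tissue, 4656, 6810.4 and 3707 FPKM in DMSO tumors and 5409.8, 5846 and 4978 FPKM in C646 tumors (5.06 ± 0.25 (SE), limma adjusted p = 2.5e-07). It was higher still in the untreated tumors, at 9136, 12483 and 15346 FPKM (−1.23 ± 0.25 (SE), limma adjusted p = 0.00525 for injected against untreated). Lalba, a subunit of lactose synthase, was 7.59, 12.2 and 53.8 FPKM in normal tissue and 437 to 2014 with a median of 1465 FPKM in injected tumors, and Folr1 (chr7:101858331-101870788, minus strand), a folate carrier, was 5.78, 3.66 and 3.83 FPKM and 145 to 237 with a median of 199 FPKM (5.49 ± 0.18 (SE), limma adjusted p = 4.24e-08). The caseins Csn1s1, Csn1s2a and Csn2 were not called, and Csn2 alone ranged from 16.4 FPKM in DMSO tumor 1 to 2372 FPKM in C646 tumor 2. Glycam1, a mucin of milk and of the vessels through which lymphocytes enter lymph nodes, was 908, 1294 and 1053 FPKM in normal tissue and 0.794 to 397 with a median of 7.76 FPKM in injected tumors (−6.60 ± 1.76 (SE), limma adjusted p = 0.00714).

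Acute phase and mucosal defence genes held the 2 largest rises on the log2 scale, those of Saa1 and Saa2. Of 15 tested, 9 were higher and 5 lower, against 40.2% and 28.9% of all tested genes. Saa1 (chr7:46740497-46742980, minus strand), serum amyloid A, was listed at 0, 0.345 and 0 FPKM in normal tissue and was 202, 649 and 1551 FPKM in DMSO tumors and 524, 491 and 744 FPKM in C646 tumors (12.99 ± 0.82 (SE), limma adjusted p = 7.77e-07). Its neighbor Saa2 (chr7:46751790-46754313, plus strand) was listed at 0, 0 and 0.372 FPKM in normal tissue and was 119 to 1289 FPKM in injected tumors (12.54 ± 0.88 (SE), limma adjusted p = 1.44e-06). They are close paralogs, so that reads could be divided between them, and their single values are uncertain. Lcn2, lipocalin 2, which binds bacterial iron carriers, was 119, 98.9 and 135 FPKM in normal tissue and 5996 to 13089.6 with a median of 6937 FPKM in injected tumors, a 66.2-fold rise in group means (6.01 ± 0.25 (SE), limma adjusted p = 1.37e-07). Chil1, a chitinase-like secreted protein, rose 91.2-fold. Of the lower genes, C3, the central complement component, was 390.4 to 474 FPKM in normal tissue and 10.7 to 32.1 FPKM in injected tumors, a 19.0-fold fall. Orm1, an acute phase protein that fat also makes, was 174, 236 and 204 FPKM and 0 to 3.47 FPKM. Il17ra, Hp and Orm2 were the other lower genes. All 14 were called in the same direction in untreated tumors.

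Proliferation genes rose together. All 23 tested were higher (median 2.56), against 40.2% of all tested genes, and 22 of the 23 were higher after scaling by the median ratio. Their sums were 174 to 289 FPKM in normal tissue, 638 to 1216 with a median of 909 FPKM in injected tumors and 762 to 1068 FPKM in untreated tumors. Mki67 (chr7:135689784-135716361, minus strand), a protein that coats mitotic chromosomes, was 7.82, 3.47 and 2.90 FPKM in normal tissue, 22.9, 40.2 and 43.3 FPKM in DMSO tumors and 52.3, 43.7 and 35.4 FPKM in C646 tumors (3.16 ± 0.32 (SE), limma adjusted p = 1.55e-05), and was higher than in untreated tumors (0.91 ± 0.24 (SE), limma adjusted p = 0.0175). Plk1, a mitotic kinase, rose 9.49-fold and Pcna, the clamp of DNA polymerases, rose 2.04-fold. The smallest difference was that of E2f1, a factor for S phase genes (0.58 ± 0.23 (SE), limma adjusted p = 0.0447), and its call was lost in some alternatives. Birc5, survivin, was lower in injected than in untreated tumors (−1.23 ± 0.32 (SE), limma adjusted p = 0.015).

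Among D cyclins, CDK4/6, their inhibitors and Rb proteins, 7 of 17 were lower and 5 higher, against 28.9% and 40.2% of all tested genes. Cdk4, a kinase that starts the cell cycle, was 112, 99.6 and 83.3 FPKM in normal tissue and 182 to 283 with a median of 209.9 FPKM in injected tumors (1.16 ± 0.16 (SE), limma adjusted p = 1.33e-04). Ccnd2, a D cyclin, went down, with 29.7, 33.1 and 28.3 FPKM in normal tissue and 0.610 to 4.43 FPKM in injected tumors (−4.65 ± 0.54 (SE), limma adjusted p = 3.47e-05). Rb1, the retinoblastoma protein, was 8.69, 8.14 and 13.3 FPKM in normal tissue, 17.2, 12.3 and 12.9 FPKM in untreated tumors and 20.8 to 37.3 with a median of 29.1 FPKM in injected tumors (1.51 ± 0.23 (SE), limma adjusted p = 2.16e-04). Cdkn1b, the CDK inhibitor p27, fell in untreated tumors to 17.6, 23.8 and 22.9 FPKM but was 38.4 to 51.0 FPKM in injected tumors against 36.3 to 40.7 FPKM in normal tissue, and was not called (0.22 ± 0.11 (SE), limma adjusted p = 0.0947). The sets of tumors did not overlap (1.05 ± 0.13 (SE), limma adjusted p = 4.80e-04).

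Genes of the secretory pathway and the unfolded protein response were higher at 15 of 19 (median 0.88), with none lower. Over all tested genes, 40.2% were higher and 28.9% lower. After scaling by the median ratio 12 of the 19 were higher. Xbp1 (chr11:5520659-5525893, plus strand), the factor that expands the endoplasmic reticulum, was 81.3, 62.0 and 85.3 FPKM in normal tissue, 710.3, 839.6 and 819 FPKM in DMSO tumors and 753, 718 and 822 FPKM in C646 tumors (3.36 ± 0.13 (SE), limma adjusted p = 7.95e-08). Its name was made of different rows in each set of files. Hspa5, the chaperone BiP, rose 3.53-fold (1.82 ± 0.12 (SE), limma adjusted p = 9.98e-07) and Trib3, a pseudokinase induced by stress, rose 4.64-fold (2.18 ± 0.19 (SE), limma adjusted p = 4.57e-06). Dnajb9, an ER chaperone and XBP1 target, was lower in untreated tumors but not in injected tumors (−0.20 ± 0.19 (SE), limma adjusted p = 0.374), and the sets differed (0.81 ± 0.19 (SE), limma adjusted p = 0.00878).

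Hypoxia and glycolysis genes went in both directions, with 7 of 20 higher and 4 lower, against 40.2% and 28.9% of all tested genes. Car12, a carbonic anhydrase on the cell surface, was 0.698, 1.05 and 0.837 FPKM in normal tissue and 51.6 to 333 with a median of 91.6 FPKM in injected tumors (6.86 ± 0.47 (SE), limma adjusted p = 1.36e-06), and Slc2a1, the glucose transporter GLUT1, rose 5.64-fold. Pfkfb3, a regulator of glycolysis that is abundant in fat, fell 12.4-fold (−3.80 ± 0.40 (SE), limma adjusted p = 1.87e-05). Gapdh was 1 of the 7 higher genes, with the near-zero values given above. In the interferon-stimulated list 3 of 17 were higher (Isg15, Ifi44 and Ifih1), below the background of 40.2%. Isg15 was 12.7, 9.85 and 7.03 FPKM in normal tissue, 375, 23.8 and 252 FPKM in DMSO tumors and 34.7, 20.8 and 19.2 FPKM in C646 tumors, so that DMSO tumors 1 and 3 were the highest. Without DMSO tumor 1, 2 genes of this list were lower, and with the C646 tumors alone, 5 were lower. Alas2 was the 1 erythroid gene tested and was not called (−1.12 ± 0.47 (SE), limma adjusted p = 0.055), and of 3 tested epidermis genes Calml3 was higher (3.54 ± 0.37 (SE), limma adjusted p = 1.82e-05).

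The genes with the largest log2 differences in each direction were named by rule. Beside Saa1, Saa2 and the milk protein Wap, which was 2.62, 0 and 0.950 FPKM in normal tissue and 88.6 to 807 FPKM in injected tumors, the 10 highest, with names that end in Rik or begin with Gm and a digit left out, were Scgb2b27, Ankrd22, Ripply1, Npy, Scrg1, Pip and a row that joins Mucl1 and Spt1. Scgb2b27, a secretoglobin of glands, was 0.938, 0 and 0.506 FPKM in normal tissue and 69.8 to 1550.2 with a median of 571 FPKM in injected tumors (11.00 ± 1.18 (SE), limma adjusted p = 2.10e-05). Ankrd22 and Ripply1 were listed at 0 in all 3 normal replicates and were 12.8 to 25.4 and 2.86 to 22.3 FPKM in injected tumors. Npy, a neuropeptide, was 12.6 to 45.1 with a median of 25.4 FPKM in injected tumors with 0, 0.629 and 0 FPKM in normal tissue. The row of Mucl1 and Spt1 and the row of Pip, genes of exocrine glands, were listed at 0 in all normal replicates and varied most among the tumors, up to 6891 FPKM for Mucl1 and Spt1 in DMSO tumor 2 against 0.286 FPKM in DMSO tumor 3, and both calls were lost with a pseudocount of 1. Among the 10 lowest were Ucp1, Hbq1b, Cyp2e1, Marco, Mir142b, Ypel4, Pck1, Ces1f and Cd79a. The names Hbq1b and Ypel4 are made of different rows in each set of files. For them a difference in row composition and one in RNA cannot be told apart. Cyp2e1, a cytochrome P450 of liver and fat, was 995, 777 and 987 FPKM in normal tissue and 0.0860 to 5.23 FPKM in injected tumors (−10.62 ± 1.06 (SE), limma adjusted p = 1.28e-05), and Pck1, a key enzyme of glycerol formation in fat, was 665, 891 and 869 FPKM and 0 to 12.4 FPKM.

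A further 10 genes were named because their differences from normal tissue were large and alike in both tumor sets, within 0.25 on the log2 scale. Of the higher ones, Spp1 (chr5:104435118-104441050, plus strand), the secreted phosphoprotein osteopontin, was 15.2, 15.1 and 26.6 FPKM in normal tissue, 3304, 3745 and 3313 FPKM in untreated tumors, 2192, 3204 and 2956 FPKM in DMSO tumors and 3515, 2272 and 4378 FPKM in C646 tumors. Its difference from normal was 7.36 ± 0.26 (SE), limma adjusted p = 6.15e-08 in injected tumors and 7.56 in untreated tumors. Aqp5, a water channel of secretory glands, rose 70.1-fold to 314 to 1690.0 FPKM, and Faim2, an inhibitor of apoptosis, rose 60.9-fold to 7.79 to 15.9 FPKM. Car6, a secreted carbonic anhydrase, ranged from 31.8 FPKM in DMSO tumor 3 to 2354 FPKM in DMSO tumor 1. The row of Egfbp2 and Klk1b26, kallikreins, was listed at 0 in normal tissue and reached 57.7 FPKM in DMSO tumor 2, and its call was lost with a pseudocount of 1. The lower ones were Ccl5, Pnpla3, Pparg, Cd37 and Ppp1r3b. Cd37, a membrane protein of B cells and other leukocytes, was 98.0, 144 and 98.2 FPKM in normal tissue and 1.26 to 2.62 FPKM in injected tumors.

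Skeletal muscle genes made the clearest group of differences that did not recur. In untreated tumors all 24 tested muscle genes were higher than in normal tissue (median 6.05). In injected tumors 1 of 21 tested was higher and none lower (median −0.22). The rule for not recurring could apply only to genes tested against normal tissue in both tumor sets, and 14 met it. Summed over the 25 genes of the list, muscle FPKM was 211, 108 and 87.5 in the normal replicates, 8181, 4232 and 2752 in the untreated tumors, 33.4, 19.3 and 687 in the DMSO tumors and 669.6, 18.9 and 589.9 in the C646 tumors. The injected tumors fell into both sides of the normal range, with DMSO tumor 3 and C646 tumors 1 and 3 above every normal replicate and the other 3 below.

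Ckm (chr7:19404776-19422841, plus strand), the creatine kinase of muscle, was 16.1, 1.25 and 1.04 FPKM in normal tissue, 1416, 469 and 383 FPKM in untreated tumors and 0.345, 0.475 and 42.9 FPKM in DMSO tumors. In C646 tumors it was 55.4 FPKM in replicate 1, near 0 in replicate 2 and 54.1 FPKM in replicate 3. Tnnt3 (chr7:142498836-142516009, plus strand), fast troponin T, was 15.8, 1.65 and 1.60 FPKM in normal tissue, 1038, 369 and 326 FPKM in untreated tumors, 0, 0 and 53.7 FPKM in DMSO tumors and 54.0, 0.386 and 52.8 FPKM in C646 tumors. Each of these genes was either near 0 or above 40 FPKM in an injected tumor, and even the higher values were below those of every untreated tumor. Neither was called against normal tissue (0.11 ± 2.45 (SE), limma adjusted p = 0.972 for Ckm and −0.82 ± 2.77 (SE), limma adjusted p = 0.804 for Tnnt3). Against untreated tumors they were lower (−7.71 ± 2.35 (SE), limma adjusted p = 0.0298 and −7.97 ± 2.70 (SE), limma adjusted p = 0.0449). Csrp3, Myoz1 and Pvalb, a muscle LIM protein, a Z disc protein and the calcium buffer parvalbumin, were the other 3 genes named for the largest rise in untreated tumors that did not recur, and each was listed at 0 in DMSO tumors 1 and 2.

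Mb and Des followed a different course. Mb, myoglobin, was 2.5, 3.06 and 3.07 FPKM in normal tissue, 64.0, 38.4 and 36.8 FPKM in untreated tumors, 25.4, 9.97 and 32.1 FPKM in DMSO tumors and 17.7, 9.22 and 15.7 FPKM in C646 tumors, so that all 6 injected tumors were above the normal replicates (2.52 ± 0.37 (SE), limma adjusted p = 1.83e-04), including those in which Ckm and Tnnt3 were near 0. Des, desmin, an intermediate filament of smooth and skeletal muscle, was 18.8, 27.3 and 20.3 FPKM in normal tissue and 0.207 to 15.9 FPKM in injected tumors (−3.41 ± 1.48 (SE), limma adjusted p = 0.0614). The comparison of the tumor sets in the muscle list depended on single libraries: 18 of 24 genes were lower in injected tumors, but 0, 4 and 9 of 22 tested were called without untreated tumor 1, 2 or 3, 14, 12 and 14 of 24 without DMSO tumor 1 or 2 or C646 tumor 2, and 9 of 24 with C646 tumors alone. In all of these analyses none of the list was higher.

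To show what these muscle genes share in sequence, promoters were taken from the RefSeq table for GRCm38.p6, as the 250 bases before each start. The hexamer CAGCTG reads the same on both strands and is one form of the E-box, the class of site bound by basic helix-loop-helix factors, among them those of muscle. It occurred in 9 of 19 matched promoters of the list (47.4%), in 3450 of all 27025 promoters (12.8%) and in 1132 of the 9639 promoters of tested genes (11.7%). A match is a description of the sequence and not a measured site. The promoters of Ckm (chr7:19410844-19411093, plus strand), Acta1 (chr8:123894776-123895025, minus strand) and Mylpf (chr7:127211358-127211607, plus strand) are given 5′ to 3′ on the gene's strand for a creatine kinase, an actin and a myosin light chain that were near 0 in the same 3 injected tumors, with the hexamer in capitals. Its first base lies 249, 221 and 51 bases before the start, in that order.
Ckm: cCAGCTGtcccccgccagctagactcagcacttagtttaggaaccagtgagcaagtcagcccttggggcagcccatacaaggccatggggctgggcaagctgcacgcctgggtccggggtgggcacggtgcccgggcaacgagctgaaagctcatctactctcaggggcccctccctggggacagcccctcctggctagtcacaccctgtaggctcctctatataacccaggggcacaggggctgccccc
Acta1: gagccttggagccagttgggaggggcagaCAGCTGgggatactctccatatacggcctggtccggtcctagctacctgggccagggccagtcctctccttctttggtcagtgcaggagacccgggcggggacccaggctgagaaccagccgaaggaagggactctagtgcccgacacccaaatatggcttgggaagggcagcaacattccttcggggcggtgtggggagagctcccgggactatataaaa
Mylpf: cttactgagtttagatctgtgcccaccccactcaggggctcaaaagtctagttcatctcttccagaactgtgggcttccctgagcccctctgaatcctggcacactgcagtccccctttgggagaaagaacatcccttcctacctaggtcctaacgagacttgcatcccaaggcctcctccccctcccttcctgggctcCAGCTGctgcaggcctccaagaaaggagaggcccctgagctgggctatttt
Acta1, the skeletal actin, was 26.8, 3.24 and 2.46 FPKM in normal tissue, 1289, 1261 and 606 FPKM in untreated tumors, 0, 0.459 and 178 FPKM in DMSO tumors and 161, 0.271 and 142 FPKM in C646 tumors. Mylpf was 18.4, 7.28 and 5.30 FPKM in normal tissue, 506, 411 and 175 FPKM in untreated tumors, 0.398, 0.759 and 54.6 FPKM in DMSO tumors and 45.9, 1.31 and 38.6 FPKM in C646 tumors. Like Ckm, both divided the injected tumors into the same 3 high and 3 low libraries.

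**Figure D3:**
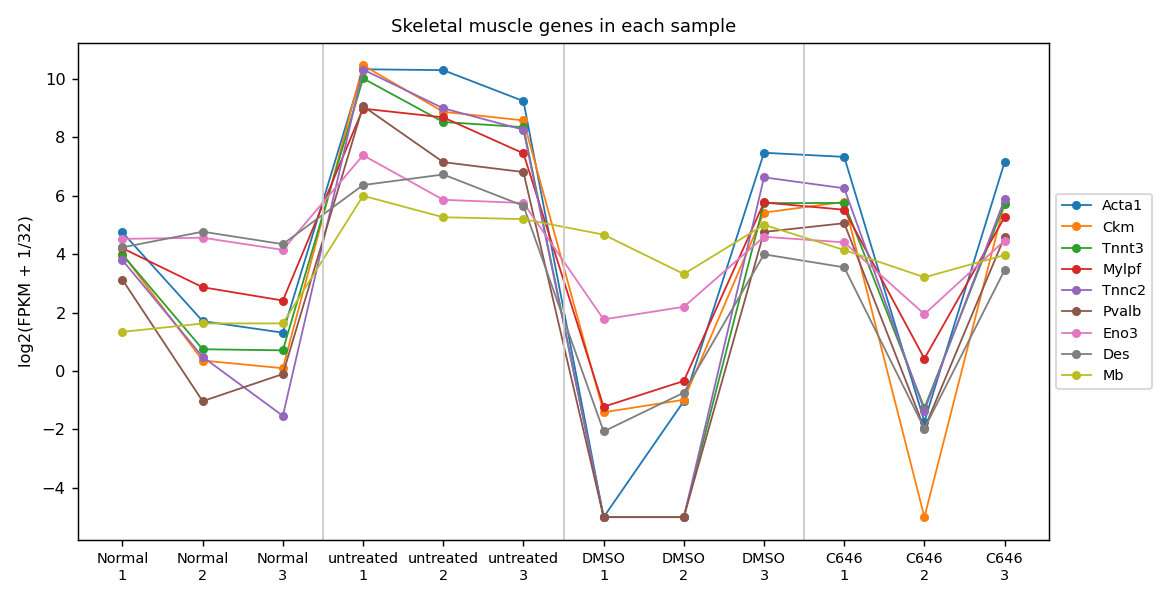
Level of 9 muscle genes as log2(FPKM + 0.03125) in each of the 12 libraries, where −5 means that the gene was listed at 0. The 3 untreated tumors are highest for every gene, and DMSO tumors 1 and 2 and C646 tumor 2 are the lowest libraries for all but Mb and Tnnc2, where C646 tumor 2 is a little above normal replicate 3 for Tnnc2.

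Histone acetyltransferases were a second group whose difference from normal tissue changed between the tumor sets. In untreated tumors 6 of 13 were lower and 3 higher, against 31.6% and 28.9% of all tested genes. In injected tumors 8 were higher and 1 lower, against 40.2% and 28.9% (median 0.46, and 5 higher and 1 lower after scaling by the median ratio). Each of the 6 lower genes, Ep300, Kat2b, Kat6a, Kat6b, Ncoa1 and Ncoa2, met the rule for not recurring. Ep300 (chr15:81585351-81652077, plus strand) encodes p300, the target of C646. The study reported more p300 protein in tumors than in normal tissue by western blot, whereas the values here are RNA. Ep300 was 8.65, 8.57 and 7.59 FPKM in normal tissue, 3.06, 3.74 and 3.19 FPKM in untreated tumors, 10.1, 9.08 and 5.84 FPKM in DMSO tumors and 11.3, 9.16 and 10.3 FPKM in C646 tumors. The injected tumors covered the normal range (0.14 ± 0.19 (SE), limma adjusted p = 0.533), and every one of them lay above every untreated tumor (1.45 ± 0.20 (SE), limma adjusted p = 7.89e-04). Ncoa2 (chr1:13139105-13374083, minus strand), a coactivator of nuclear receptors, was 5.64, 5.48 and 6.08 FPKM in normal tissue, 1.87, 2.14 and 2.2 FPKM in untreated tumors, 8.63, 8.83 and 7.28 FPKM in DMSO tumors and 7.98, 9.16 and 8.35 FPKM in C646 tumors, and it was lower than normal in the first set (−1.46 ± 0.17 (SE), limma adjusted p = 3.68e-04) and higher in the second (0.54 ± 0.12 (SE), limma adjusted p = 0.00208). Kat6b (chr14:21481434-21672478, plus strand), an acetyltransferase of histone H3, likewise changed sides (−0.93 ± 0.19 (SE), limma adjusted p = 0.00479 and 0.81 ± 0.17 (SE), limma adjusted p = 0.00172). Kat2a, which encodes GCN5, was 15.6, 15.1 and 14.6 FPKM in normal tissue and 37.0 to 47.8 with a median of 39.9 FPKM in injected tumors (1.45 ± 0.10 (SE), limma adjusted p = 1.34e-06), and it rose in both sets, as did Kat5 and Hat1.

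The genes named for the largest fall in untreated tumors that did not recur were Abca1, Lyz1, Crot, Kmt2e and Atp11b. Abca1 (chr4:53030787-53159895, minus strand), which exports cholesterol, was 12.6, 9.47 and 14.0 FPKM in normal tissue, 2.57, 2.28 and 2.21 FPKM in untreated tumors, 9.58, 15.4 and 10.3 FPKM in DMSO tumors and 10.9, 12.7 and 19.0 FPKM in C646 tumors. It was not called in the injected tumors (0.088 ± 0.23 (SE), limma adjusted p = 0.745) and differed between the sets (2.41 ± 0.22 (SE), limma adjusted p = 7.33e-05). Kmt2e (chr5:23434441-23504235, plus strand), a chromatin protein with a SET domain, was 11.1, 10.8 and 11.8 FPKM in normal tissue, 2.32, 4.67 and 3.13 FPKM in untreated tumors and 7.44 to 15.9 with a median of 13.3 FPKM in injected tumors, lowest in DMSO tumor 3 (1.96 ± 0.27 (SE), limma adjusted p = 7.42e-04 between the sets). Atp11b, a phospholipid flippase, was 20.9, 19.9 and 24.8 FPKM, 5.86, 8.44 and 7.22 FPKM and 21.8 to 31.1 with a median of 28.9 FPKM in the same order. Crot, a peroxisomal acyltransferase, was 15.6, 18.4 and 21.8 FPKM, 5.68, 3.23 and 7.77 FPKM and 7.01 to 17.1 with a median of 12.5 FPKM, and its difference between the sets was lost without untreated tumor 1 or 2. Lyz1, a lysozyme, was 71.7, 84.8 and 65.2 FPKM, 15.8, 14.4 and 23.4 FPKM and 113 to 186 with a median of 132 FPKM, and its name was made of different rows in each set of files. The differences of Ep300, Ncoa2, Kat6b, Abca1, Kmt2e and Atp11b between the sets were called in all 20 alternative analyses. Lyz1 could not be tested in the analysis of names composed alike.

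**Figure D4:**
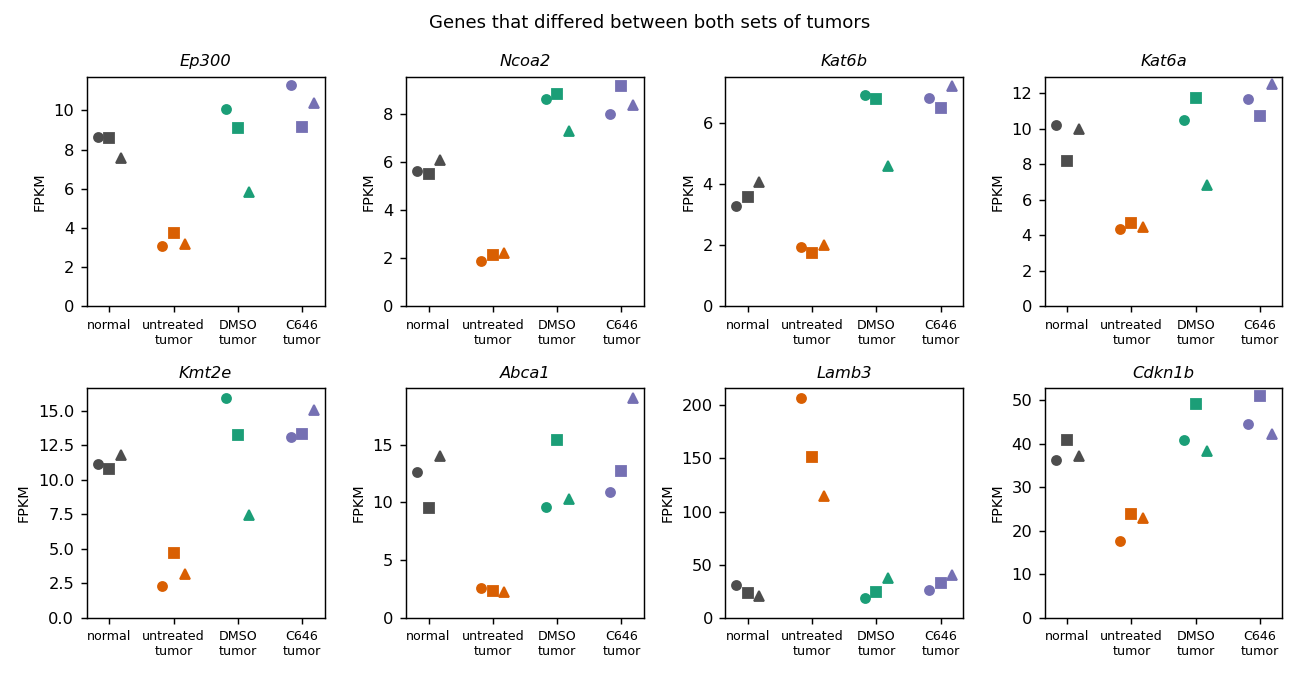
FPKM of Ep300, Ncoa2, Kat6b, Kat6a, Kmt2e, Abca1, Lamb3 and Cdkn1b in each library, with a circle, square and triangle for replicates 1, 2 and 3 and axes that start at 0. For 7 of the 8 genes the untreated tumors are the lowest group and the injected tumors are at or above the normal level, except DMSO tumor 3 for Ep300, Kat6a and Kmt2e, and for Lamb3 the untreated tumors alone are high.

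Transcript length and base composition moved with the difference between the tumor sets. Genes were put into 5 groups of nearly equal size by the length of their longest transcript in GENCODE vM21, which matched 94.4% of tested genes. From the shortest to the longest group, the median log2 difference of injected against untreated tumors rose at each step, from −0.31 to 0.60. In untreated tumors against normal tissue it went from 0.32 to −0.33, and in injected tumors against normal tissue from 0.049 to 0.27. By GC content the median of injected against untreated tumors went from 0.51 in the lowest to −0.097 in the highest group. The lower genes that did not recur had a median transcript of 5063 bases with 45.1% GC, against 3254.5 bases and 50.4% for the lower genes that recurred. For the higher genes the medians were 2464 bases without and 2926 bases with recurrence.

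The histone acetyltransferases are long, with a median of 7329 bases. The 8 longest, from Crebbp at 10820 bases to Kat2b at 4653 bases, were all higher in injected than in untreated tumors by 0.74 to 2.0 on the log2 scale. Of the 5 shortest, Kat7 was called (0.34) and Kat2a, Kat5, Hat1 and Kat8 were not (0.30, 0.22, −0.052 and −0.14). The part of length and composition in the difference of Ep300 and the other acetyltransferases between the sets was not tested.

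**Figure D5:**
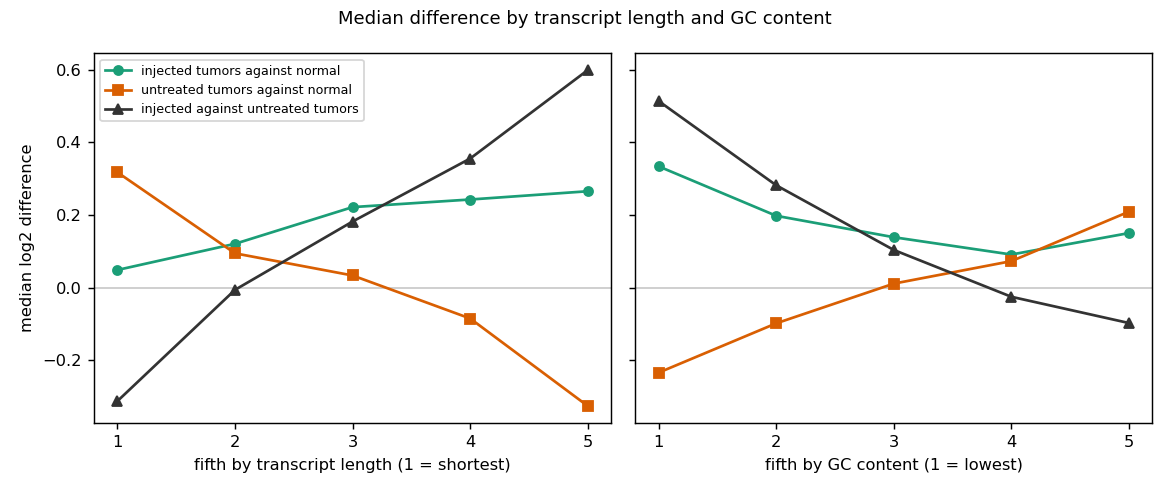
Median log2 difference for 5 groups of genes by transcript length and 5 by GC content, from lowest to highest, for injected tumors against normal tissue, untreated tumors against normal tissue and injected against untreated tumors. The line for injected against untreated tumors climbs with length from −0.31 to 0.60 and falls with GC content from 0.51 to −0.097, and the other comparisons span less.

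The genes that differed most between the tumor sets were named as well, 10 in each direction. Many of the higher ones are names that the sets of files compose of different rows: Bmp6, Pde4d, Dis3l2, Tceal1, Ric1 and Lyz1. Bmp6, a growth factor, was 3.61, 2.86 and 4.59 FPKM in normal tissue, 0.261, 0.210 and 0.249 FPKM in untreated tumors and 22.1 to 36.4 with a median of 31.3 FPKM in injected tumors. Azin2, Zfp560 and Zfp418 were composed alike, and Azin2, a regulator of polyamine synthesis, was 11.0, 15.1 and 9.11 FPKM, 4.76, 2.89 and 5.6 FPKM and 43.1 to 76.9 with a median of 50.1 FPKM (3.64 ± 0.24 (SE), limma adjusted p = 1.11e-05 between the sets). Among the lower ones, Hbq1b, Ypel4 and Camk2b were composed differently, and Hbq1b, a hemoglobin chain, was 99.0 to 168 FPKM in normal tissue, 108 to 245 FPKM in untreated tumors and listed at 0 in all 6 injected tumors. Mir682, Snord35a and Snhg9, which encode or host small RNAs, were listed at 0 in all 6 injected tumors and were 85.3 to 154, 25.2 to 51.3 and 7.32 to 30.8 FPKM in untreated tumors. Tnnt3, Ckm, Ryr1 and Pvalb are muscle genes. Of 397 tested names composed differently, 44.3% were called between the sets, against 33.1% of 11801 composed alike, and a difference in row composition and one in RNA cannot be told apart for such names. In injected tumors against normal tissue the shares were 74.6% of 413 and 69.0% of 12633.

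Among themselves the 6 injected tumors varied most in muscle, with the highest sum 36.3 times the lowest. Mast cell sums followed at 21.0 times, epidermis at 13.7 times, interferon-stimulated genes at 10.7 times and white adipocytes at 9.30 times. The mast cell ratio is one of values near 0, at 0.280 to 5.90 FPKM against 158 to 216 FPKM in normal tissue. The interferon-stimulated sum was 1667 FPKM in DMSO tumor 1, where hypoxia and glycolysis genes were also highest at 9473 FPKM. DMSO tumor 3 was highest for epidermis at 229.5 FPKM and for basal genes at 539 FPKM. In contrast, histone acetyltransferase sums varied 1.07-fold, the secretory pathway 1.10-fold and luminal epithelium 1.27-fold. Between C646 and DMSO tumors none of 11832 genes tested with limma was called at an adjusted p under 0.05 (0%). At an unadjusted p under 0.05 there were 376 genes, and without DMSO tumor 2, 12 genes were called lower. This does not show that the groups are alike. The study reported genes that differed between these groups, with lower Vegfa after C646.

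Of the 7 genes that the study singles out, Xbp1, Pak4, Epcam and Egln3 were higher in injected tumors, against 40.2% of all tested genes. They were chosen on tissues of this study, so their direction is not independent evidence. The study showed Egln3, Mrps7 and Vegfa for C646 against DMSO tumors, which is another comparison than the one with normal tissue. Pak4 (chr7:28558819-28598185, minus strand), a kinase of the cytoskeleton, was 9.35, 8.08 and 6.31 FPKM in normal tissue, 17.2, 22.9 and 24.8 FPKM in untreated tumors, 25.8, 32 and 29.8 FPKM in DMSO tumors and 35.0, 29.9 and 26.5 FPKM in C646 tumors (1.92 ± 0.14 (SE), limma adjusted p = 1.95e-06). Egln3 (chr12:54178981-54203860, minus strand), an oxygen-sensing hydroxylase, was 7.81, 6.51 and 9.17 FPKM, 35.8, 87.4 and 95.9 FPKM, 320.3, 48.2 and 150.1 FPKM and 59.4, 56.4 and 29.1 FPKM in the same order (3.33 ± 0.64 (SE), limma adjusted p = 0.00101). All injected tumors were above normal tissue for both. Mrps7, a mitochondrial ribosomal protein, rose in untreated tumors to 146, 90.1 and 238 FPKM, but in the injected tumors it was 342 FPKM in DMSO tumor 1 and 49.6 to 68.9 FPKM in the other 5, against 53.2 to 72.1 FPKM in normal tissue (0.33 ± 0.55 (SE), limma adjusted p = 0.61). Vegfa (chr17:46016993-46032369, minus strand), the growth factor for blood vessels, was 56.4, 73.6 and 73.4 FPKM in normal tissue, 12.4, 34.5 and 26.4 FPKM in untreated tumors, 183, 19.6 and 104 FPKM in DMSO tumors and 43.8, 23.6 and 22.4 FPKM in C646 tumors. DMSO tumors 1 and 3 were above the normal replicates and the other 4 injected tumors below, and Vegfa was not called (−0.57 ± 0.67 (SE), limma adjusted p = 0.468).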

How the data were processed

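RNA-seq of poly(A) RNA was available as a table for each sample, with FPKM beside gene names. The authors mapped reads to mm10 with TopHat2 2.1.1 and deposited FPKM computed with Cufflinks 2.2.1, as named in their methods and processing notes. FPKM is already divided by transcript length and library size, read numbers are not known, and libraries were not strand-specific, so a gene and an overlapping antisense gene cannot be told apart. The files of normal and untreated tumors hold 26220 rows, 1837 without a name, and those of injected tumors 24304 rows.

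Rows without a name were dropped, FPKM was summed over rows of 1 name, and the 23301 shared names were kept, of 23704 and 23691. These sums were made of different numbers of rows for 497 names. Genes that reached 1 FPKM in 3 or more of the libraries compared were tested on log2(FPKM + 2 to the power of -5) with limma 3.58.1 in R 4.3.3 (lmFit, eBayes with a variance trend), 2-sided, with Benjamini-Hochberg adjustment over all tested genes and a threshold of 0.05. Log2 differences are on this scale and depend on the pseudocount for genes near 0. A group was compared only with the samples named in each comparison. The script was tested on simulated data. Other steps used Python 3.11.15, pandas 2.3.3 and numpy 2.4.6, with figures drawn in matplotlib 3.10.9.

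The question, the 29 gene lists (473 genes, of which 444 are shared names) and the rules for named genes were chosen with earlier results of these data known. The rules named the 10 genes in each direction with the largest called log2 difference between injected tumors and normal tissue and between both tumor sets, the 5 in each direction with large differences that were alike in both sets within 0.25, and the 5 with the largest difference that did not recur, each with no overlap of the groups and a higher mean of at least 10 FPKM, leaving out names that end in Rik or begin with Gm and a digit. List genes were also named, and examples within lists were picked after their values were seen. Normal replicates pooled 3 mice, tumor replicates were 1 mouse each. Alternatives were pseudocounts of 1 and 2 to the power of -2, no filter, 2 scalings, 1 fit over 3 groups, names with 1 row, names composed alike, a replicate block, DMSO or C646 tumors only, each library left out, and the 3 injected tumors with muscle left out. The last and the names composed alike were added after the data were seen. Genes whose names the sets of files write differently, such as Krt14 and Ccnd1, were not analysed here. A few genes that the rules or lists name are not reported here.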

Additional observations from a re-analysis of the deposited data

Results flagged for a closer look

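In 81 groups of 6 injected tumors checked, the highest or lowest tumor stood apart from the other 5 by Dixon's criterion in 6, and chance alone flags about 1 in 20 such groups. DMSO tumor 3 stood apart in 5 of them. Its summed FPKM was highest for the basal and myoepithelial genes at 539 FPKM, for the T lymphocyte genes at 22.6 FPKM and for the epidermis genes at 229.5 FPKM, and lowest for the Schwann cell genes at 229.6 FPKM. In the T lymphocyte sum, Tcf7 alone was 17.8 FPKM in that tumor. Kmt2e, a chromatin protein, was lowest in DMSO tumor 3 at 7.44 FPKM. The joined row of the kallikreins Egfbp2 and Klk1b26 was highest in DMSO tumor 2 at 57.7 FPKM.

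The difference from normal tissue also changed between injected and untreated tumors, by a direct limma comparison of both tumor sets. Injected tumors were lower by this test for the muscle genes Ckm at −7.71, Csrp3 at −5.59, Tnnt3 at −7.97, Myoz1 at −6.63 and Pvalb at −7.27 on the log2 scale. They were higher for Abca1, a cholesterol exporter, at 2.41, for Lyz1, a lysozyme, at 2.95, for Crot, a peroxisomal acyltransferase, at 1.21, for Kmt2e at 1.96, for Atp11b, a flippase, at 1.92 and for Ep300 at 1.45. The calls of the 5 muscle genes were lost without any 1 of the untreated tumors, and that of Crot without untreated tumor 1 or 2. The injection, the choice of tumor and the set of files cannot be told apart as sources of these differences.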

How the results depend on the processing

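Against normal tissue, leaving out each library in turn gave 4678 to 5331 genes higher and 2539 to 3880 lower in injected tumors, and 2974 to 3309 higher and 2503 to 4072 lower in untreated tumors. Without normal replicate 2 or 3, 2614 and 2503 genes were lower in untreated tumors. Recurring higher genes numbered 2429 to 3061 and recurring lower genes 1771 to 3159, with 1909, 1771 and 1787 of the latter without normal replicate 1, 2 and 3, where fewer genes passed the filter. Genes that did not recur numbered 171 to 412 higher, lowest without untreated tumor 1 at 171, and 447 to 742 lower, lowest without normal replicate 3 at 447. Injected against untreated tumors gave 2126 to 3134 genes higher and 559 to 1511 lower, lowest without untreated tumor 1 at 559. C646 against DMSO tumors gave 0 to 12 lower, with 12 without DMSO tumor 2.

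Scaling by the median ratio gave 1914 genes lower between the tumor sets, a share of higher genes of 50.9% against 70.7%, and 577 higher genes that did not recur. Quantile normalization gave 1924 higher between the sets (58.1%) and 335 lower genes that did not recur. With DMSO tumors only, 892 were higher and 330 lower between the sets, and 120 higher and 318 lower genes did not recur. The cause of these shifts was not tested, beyond the smaller number of samples. Names composed alike gave 5071 higher and 3640 lower genes against normal tissue, with 2937 and 2946 recurring. With a pseudocount of 1, the calls of Mucl1,Spt1 (4.47), Pip (3.31) and Egfbp2,Klk1b26 (2.03) were lost. Over all alternatives, the other 599 values of the genes named by rule for injected tumors against normal tissue kept their call and direction.

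Replicate numbers were not taken to pair the samples, since in no comparison did every pair of equally numbered samples correlate above 0.1. The correlations ranged from −0.211 to 0.145 in injected tumors and normal tissue (2 of 9 above 0.1), from −0.335 to 0.152 in both tumor sets (3 of 9), from −0.0993 to 0.00908 in untreated tumors and normal tissue (0 of 3) and from 0.0653 to 0.177 in C646 and DMSO tumors (2 of 3). Adding the replicate block to the model gave 5038 genes higher and 3678 lower in injected tumors against normal tissue, 2562 and 1031 between the tumor sets, 2771 and 2887 recurring, and 279 and 548 not recurring. Depth per library is not known, so the reliability of low FPKM values cannot be stated.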
